A study of Homo sapiens with 4 samples.

Results

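The genes of the nuclear pore and of transport through it were followed in BE(2)C cells, a human neuroblastoma cell line with amplified MYCN, after knockdown of MYCN. The genes were chosen by symbol alone: the numbered importins, exportins, importin alphas, transportins and nucleoporins (NUP), with KPNB1, CSE1L, RAN and its regulators, NUTF2, TPR, RAE1, AAAS, SEH1L, NXF1 and NXT1. The rule gave 58 of the 26364 genes listed in each sample. No measured value is part of the rule, but it was set with earlier results of these data known. RNA was sequenced from 4 samples. The 2 control samples (genotype wild type in the labels) and the 2 MYCN knockdown samples (MYCN KD) were the same line, transfected with Lipofectamine 2000 for 6 h and collected the next day. Control cells received a non-targeting siRNA and MYCN KD cells a single siRNA product against MYCN, at 80 nM in the labels, while the study's methods give a lower final concentration. The study's methods call the replicates biological, and neither they nor the labels say whether these were separate cultures. The p-values measure only the spread left between these samples after the authors removed unwanted variation. In those values the replicates of the 2 groups did not vary independently, as described below.

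The values are RPKM, read counts scaled to gene length and library size, which the authors calculated after removing unwanted variation from the counts. Totals of 29055819 to 34142988 normalized reads lay behind a sample. MYCN itself had 1068 and 1073 RPKM in control and 720.2 and 718.0 RPKM after knockdown, so the groups lay far apart (log2 fold change -0.57, standard error 0.029, adjusted p = 0.00361 from limma). All 8 markers of noradrenergic neuroblastoma were present, with means of 28.5 to 614 RPKM. Their sum was 1353 and 1251 RPKM in control and 1988 and 2163 RPKM in MYCN KD. Of 14 markers of blood, epithelial, fibroblast and endothelial cells, 3 had a mean of at least 1 RPKM, namely CD14 (1.63), COL1A1 (1.25) and DCN (6.80). HBB and KRT5 were at 0 in each sample, and PTPRC had at most 0.00464 RPKM. CD14 had 1.74 and 1.51 RPKM in control and 1.52 and 1.75 RPKM in MYCN KD, and the epithelial EPCAM had 0.136 and 0.146 RPKM in control and 0.421 and 0.395 RPKM in MYCN KD. The 4 fibroblast markers summed to 5.46 and 6.55 RPKM in control and 11.4 and 9.68 RPKM in MYCN KD, most of it DCN. The part of these shifts in the results below was not tested. In bulk RNA, fewer cells of a type and less RNA per cell cannot be told apart.

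Nuclear pores are large protein channels through the nuclear envelope, built from many copies of nucleoporins arranged in stacked rings. Nucleoporins rich in phenylalanine-glycine (FG) repeats fill the channel and hold back large proteins unless a transport receptor carries them. Receptors of the importin beta superfamily bind cargo and the small GTPase Ran, whose GTP form is made in the nucleus and hydrolysed in the cytoplasm, which gives transport its direction. Bulk messenger RNA leaves through a different receptor, the NXF1-NXT1 dimer. Dividing cells that make many ribosomes move ribosomal proteins in and pre-ribosomal particles out through these pores.

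Of the 58 genes, 56 had a mean of at least 1 RPKM and were tested, with means from 1.97 RPKM (KPNA5) to 311 RPKM (KPNA2). KPNA7, an importin alpha known from the egg and early embryo, was listed at 0 in each sample, and NUP210L, a paralog of NUP210 known from the testis, had means of 0.0103 RPKM in control and 0.00842 RPKM in MYCN KD. Differences were taken on log2(RPKM + 1) and tested with limma over all 11411 genes that passed the filter, at an adjusted p of 0.05. The added 1 understates the change of weakly expressed genes.

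MYCN knockdown lowered 30 of the 56 tested genes and raised 1. Among all tested genes, 22.8% were lower and 25.3% were higher. The share of lower genes in nuclear transport was 53.6%. Their middle difference was -0.31 on the log2 scale (quartiles -0.47 and -0.11), beside a median of 0.03 and quartiles of -0.23 and 0.29 over all tested genes. In 41 of the 56 genes (73.2%) the knockdown samples lay below the controls without overlap, beside 35.8% of all tested genes. They were above in 2 genes, IPO9 and IPO13, beside 40.4% of all tested genes, and overlapped in 13. The fitted difference was below 0 in 49 genes. With the summed RPKM of each sample made equal (rescaled totals below) this was so in 45, and 24 genes passed the threshold as lower. Of all tested genes, 18.6% were lower and 28.7% higher with rescaled totals.

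**Figure D1:**
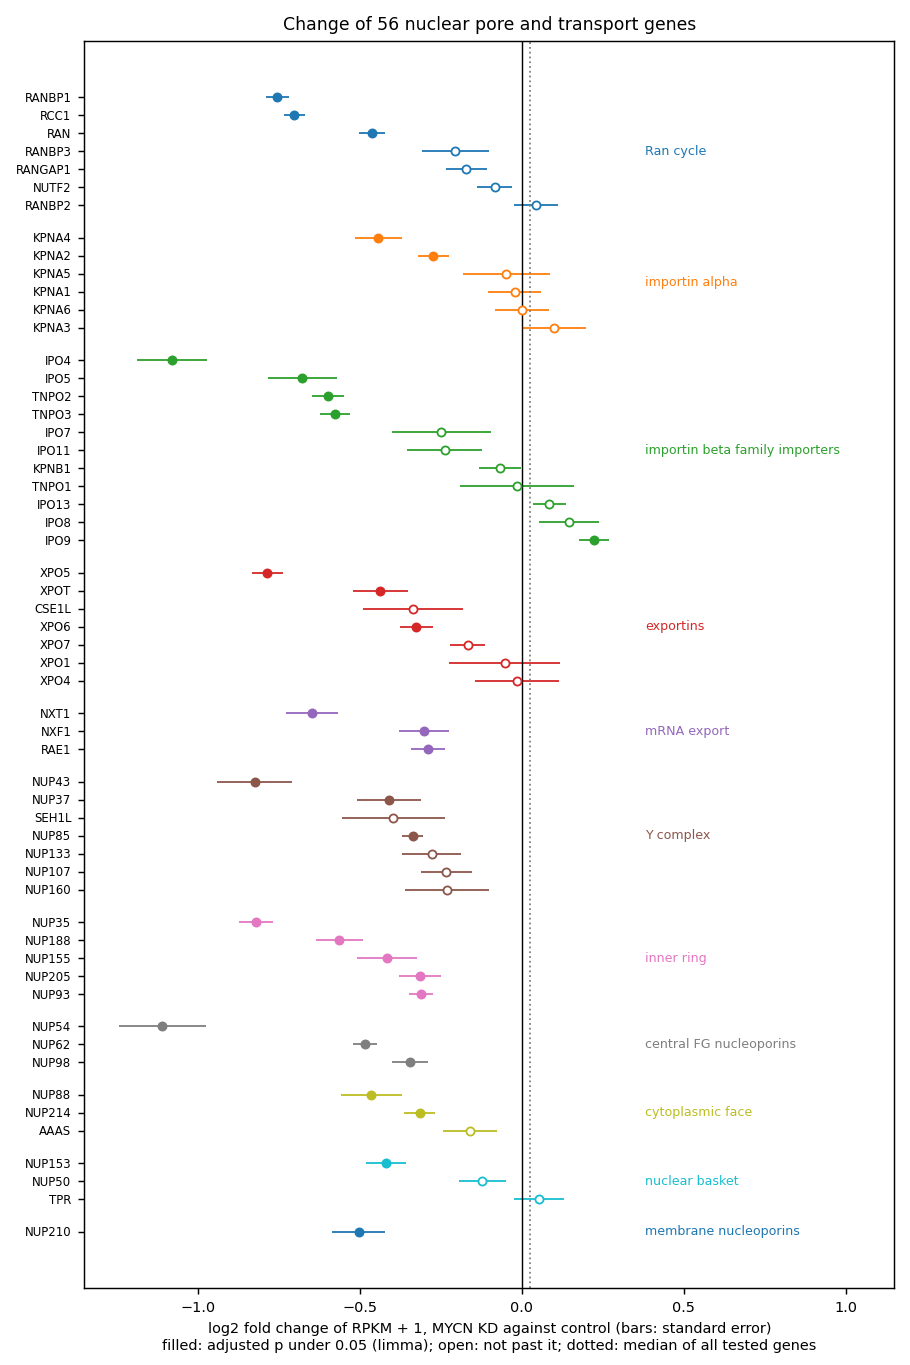
Log2 fold change of RPKM + 1 (x axis) of each of the 56 tested genes, grouped by role, with standard errors as bars and genes past the limma threshold as filled points. 30 filled points lie to the left of 0 and 1, IPO9, to the right, and the dotted line marks the median of all tested genes at 0.03.

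The 22 tested subunits of the pore itself held 15 lower genes and 0 higher by limma (0 also at an unadjusted p under 0.05), with a median of -0.37 and MYCN KD values below control in 21 of them. The 34 tested transport factors held 15 lower genes and 1 higher, with a median of -0.24 and MYCN KD below control in 20. Whether pore subunits and transport factors differ from each other was not tested.

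**Figure D2:**
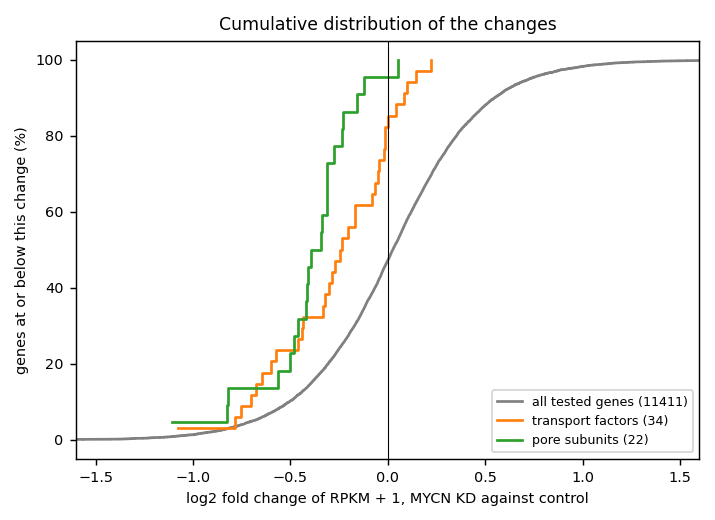
Cumulative share of genes (y axis, percent) at or below a log2 fold change (x axis) for all 11411 tested genes, the 34 transport factors and the 22 pore subunits. Both lines of nuclear transport genes lie to the left of the line for all genes over most of the range, with medians of -0.24 and -0.37.

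MYCN and its partner MAX bind the E-box CACGTG, so the promoters were searched for these letters, which read the same on both strands. RefSeq promoter windows of 300 bases, from 250 before to 50 after the start site, were at hand for 51 of the 58 genes. The letters occurred in 7 of the 51 windows (13.7%), beside 7.43% of 27305 RefSeq windows of the same length. The RefSeq windows include genes not expressed here, and the share over the tested genes alone was not taken. All 8 occurrences in the 7 windows lay before the start site that the RefSeq window uses. They are shown because genes called lower and genes not called both carry the letters, each with 17 bases on either side, 5′ to 3′ on the gene's strand, and the E-box in capitals. Positions are those of the printed bases in GRCh37, which is hg19, the build of the study, found by exact match.
RAN, chr12:131356492-131356531, plus strand: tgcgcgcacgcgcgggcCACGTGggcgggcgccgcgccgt
IPO4, chr14:24658029-24658068, minus strand: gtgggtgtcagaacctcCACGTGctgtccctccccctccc
TNPO2, chr19:12834748-12834787, minus strand: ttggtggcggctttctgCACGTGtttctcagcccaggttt
NUP188, chr9:131709884-131709923, plus strand: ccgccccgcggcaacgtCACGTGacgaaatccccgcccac
NUP188, chr9:131709931-131709970, plus strand: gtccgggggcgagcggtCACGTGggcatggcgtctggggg
IPO7, chr11:9406044-9406083, plus strand: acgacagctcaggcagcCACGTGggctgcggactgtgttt
KPNA3, chr13:50366862-50366901, minus strand: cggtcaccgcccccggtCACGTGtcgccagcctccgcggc
NUP50, chr22:45559615-45559654, plus strand: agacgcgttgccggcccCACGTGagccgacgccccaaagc
The first base of the E-box lay 102 bases before the start site in RAN, 29 in IPO4, 24 in TNPO2 and 77 and 30 in NUP188. It lay 138 bases before it in IPO7, 66 in KPNA3 and 174 in NUP50. These distances are from the RefSeq start site, while gene positions here come from GENCODE and can differ. In IPO4 and TNPO2, on the minus strand, the GENCODE bounds reach 24658075 and 12834825, so the letters lie inside them. Of the 7 genes with the letters, 4 were lower in MYCN KD (RAN, IPO4, TNPO2 and NUP188), and of the 43 tested genes whose window lacked them, 23 were lower. The median log2 fold change was -0.46 with the letters and -0.31 without. These counts are a description of 300 bases a gene, and a match is not a bound site. The share lower and the median over all tested genes with and without the letters were not taken. Whether the values above differ from those of other genes with the letters thus cannot be told.

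The Ran cycle held 3 lower genes of 7, and these were RAN itself, RCC1 and RANBP1. RANBP1, which binds RanGTP and helps its hydrolysis in the cytoplasm, had 265.5 and 273.1 RPKM in control and 161.2 and 157.2 RPKM in MYCN KD. The values fell into pairs far apart, and MYCN KD reached 59.1% of control (log2 fold change -0.75, standard error 0.035, adjusted p = 0.00359). RCC1, the chromatin-bound exchange factor that loads Ran with GTP, had 52.4 and 52.6 RPKM in control and 31.9 in each MYCN KD sample. Within each group its replicates were closer than those of the other Ran cycle genes (log2 fold change -0.70, standard error 0.032, adjusted p = 0.00359). RAN, which lies on chromosome 12 from 131356582 to 131362223 of GRCh37, had 293.9 and 304.5 RPKM in control and 220.5 and 213.4 RPKM in MYCN KD. RAN thus stood at 72.5% of control, with a log2 fold change of -0.46 (standard error 0.039, adjusted p = 0.00594).

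The other 4 Ran cycle genes did not pass the threshold. NUTF2, which carries RanGDP back into the nucleus and had the highest mean of the 7 genes, had 303.0 and 285.2 RPKM in control and 269.3 and 285.8 RPKM in MYCN KD. These values overlapped (log2 fold change -0.08, adjusted p = 0.276). On the log2 scale RANGAP1, the activator of GTP hydrolysis, differed by -0.17 (adjusted p = 0.107), RANBP3, a cofactor of nuclear export, by -0.20 (adjusted p = 0.186), and RANBP2, the large Ran-binding nucleoporin of the cytoplasmic filaments, by 0.04 (adjusted p = 0.612). With a sample left out, RANBP3 lay from -0.30 to -0.11. RANBP2 has near-identical copies in the genome, and the 7 listed RGPD genes among them had at most 2 reads in a sample, so how reads shared by these copies were counted bears on its 3.49 RPKM in control and 3.63 RPKM in MYCN KD.

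The importin alphas are adaptors that bind the classical nuclear localization signal and hand cargo to importin beta. Of 6 tested, KPNA2 and KPNA4 were lower and 4 were not called. KPNA2, the most abundant of all the nuclear transport genes and a gene that rises in cells about to divide, had 332.2 and 349.2 RPKM in control and 288.5 and 275.2 RPKM in MYCN KD. The groups did not overlap, at 82.7% of control (log2 fold change -0.27, standard error 0.047, adjusted p = 0.0208). The call was lost with a replicate block, a fit in which samples of equal replicate number share an offset (adjusted p = 0.0917). KPNA2 also missed the threshold with rescaled totals (-0.21, adjusted p = 0.0598) and with quantile normalization (-0.16, adjusted p = 0.0925). With a sample left out its difference lay from -0.31 to -0.24.
KPNA4 had 9.18 and 10.1 RPKM in control and 7.11 and 6.52 RPKM in MYCN KD. Both MYCN KD samples were below both control samples, with a log2 fold change of -0.44 (standard error 0.072, adjusted p = 0.0185). KPNA3, from the same subfamily as KPNA4, had 10.6 and 12.1 RPKM in control and 13.0 and 11.4 RPKM in MYCN KD. These values overlapped, and the difference of 0.10 was not called (adjusted p = 0.442). KPNA1, KPNA5 and KPNA6 had differences from -0.05 to 0.00 on the log2 scale.

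Importin beta, KPNB1, is the receptor that takes importin alpha and its cargo through the pore, and also carries cargo of its own. It had 124.4 and 134.4 RPKM in control and 128.0 and 119.0 RPKM in MYCN KD. The groups overlapped, and the log2 fold change of -0.07 was not called (standard error 0.065, adjusted p = 0.441). The related importers held 4 lower genes, 1 higher and 6 not called, KPNB1 included.
IPO4, an importer of histones and of the ribosomal protein RPS3A, changed most of the receptors. It lies on chromosome 14 from 24649425 to 24658075 of GRCh37 and had 85.5 and 74.5 RPKM in control and 34.8 and 39.8 RPKM in MYCN KD. The lowest control value was well above the highest MYCN KD value, and the mean of MYCN KD was 46.6% of control (log2 fold change -1.08, standard error 0.11, adjusted p = 0.00751). With a library left out it lay from -1.18 to -0.98.
IPO5, an importer of ribosomal proteins and histones, had 41.2 and 47.3 RPKM in control and 29.1 and 25.5 RPKM in MYCN KD. Its values also fell into separate pairs, at 61.7% of control (log2 fold change -0.68, standard error 0.11, adjusted p = 0.0172). The transportins import RNA-binding proteins and, in the case of TNPO3, splicing factors with arginine-serine repeats. TNPO2 had 86.9 and 82.6 RPKM in control and 54.2 and 57.0 RPKM in MYCN KD. The gap between the groups was wider than the spread within them, with a log2 fold change of -0.60 (standard error 0.049, adjusted p = 0.00569). TNPO3 was lower by a like amount (-0.58, standard error 0.046, adjusted p = 0.00548), and TNPO1, the paralog of TNPO2, had 15.0 and 19.0 RPKM in control and 18.8 and 14.9 RPKM in MYCN KD. Its groups overlapped nearly in full (log2 fold change -0.01, standard error 0.18, adjusted p = 0.950), and whether TNPO1 and TNPO2 differ in their change was not tested.
IPO9, which imports histones and actin, was the 1 gene called higher. It had 24.9 and 26.1 RPKM in control and 30.6 and 29.3 RPKM in MYCN KD. The groups did not overlap, with a log2 fold change of 0.22 (standard error 0.048, adjusted p = 0.0321). The call was lost with the replicate block (adjusted p = 0.256), and with a library left out the difference lay from 0.19 to 0.26. IPO7, IPO8, IPO11 and IPO13 were not called, with differences from -0.25 (IPO7) to 0.15 (IPO8). With a library left out, IPO7 lay from -0.39 to -0.11 and IPO11 from -0.34 to -0.13. IPO11 passed with quantile normalization (-0.30, adjusted p = 0.0417).

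Exportins carry cargo out with RanGTP, and 3 of 7 were lower. XPO5, the exporter of microRNA precursors, had 42.9 and 45.0 RPKM in control and 25.6 and 24.5 RPKM in MYCN KD. Each pair was tight, and MYCN KD was 57.1% of control (log2 fold change -0.78, standard error 0.047, adjusted p = 0.00414). XPOT, the exporter of transfer RNA, had 52.4 and 58.3 RPKM in control and 42.7 and 38.6 RPKM in MYCN KD. The groups did not overlap (log2 fold change -0.44, standard error 0.085, adjusted p = 0.0265), but the call was lost with rescaled totals (-0.38, adjusted p = 0.0538). XPO6, the exporter of actin and the exportin with the highest mean, had 73.003 and 69.3 RPKM in control and 55.1 and 58.1 RPKM in MYCN KD. MYCN KD lay below control in both samples (log2 fold change -0.32, standard error 0.050, adjusted p = 0.0164).
XPO1, or CRM1, is the main exporter of proteins with leucine-rich signals and of ribosomal subunits. It had 35.1 and 44.1 RPKM in control and 42.3 and 34.0 RPKM in MYCN KD. Replicates of a group differed by more than the groups did, and no change was detectable (log2 fold change -0.05, standard error 0.17, adjusted p = 0.815). Its sign turned with rescaled totals (0.0066) and without control replicate 2 (0.11) or MYCN KD replicate 2 (0.10).
CSE1L, or CAS, returns importin alpha to the cytoplasm. It had 58.1 and 71.2 RPKM in control and 56.0 and 46.1 RPKM in MYCN KD. The knockdown samples lay below the controls, without passing the threshold (log2 fold change -0.33, standard error 0.15, adjusted p = 0.159). The difference was -0.48 without control replicate 1 and -0.47 without MYCN KD replicate 1. It shrank to -0.19 without control replicate 2 and -0.20 without MYCN KD replicate 2. XPO7 (-0.17, adjusted p = 0.0784) and XPO4 (-0.01, adjusted p = 0.932) were not called.

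**Figure D3:**
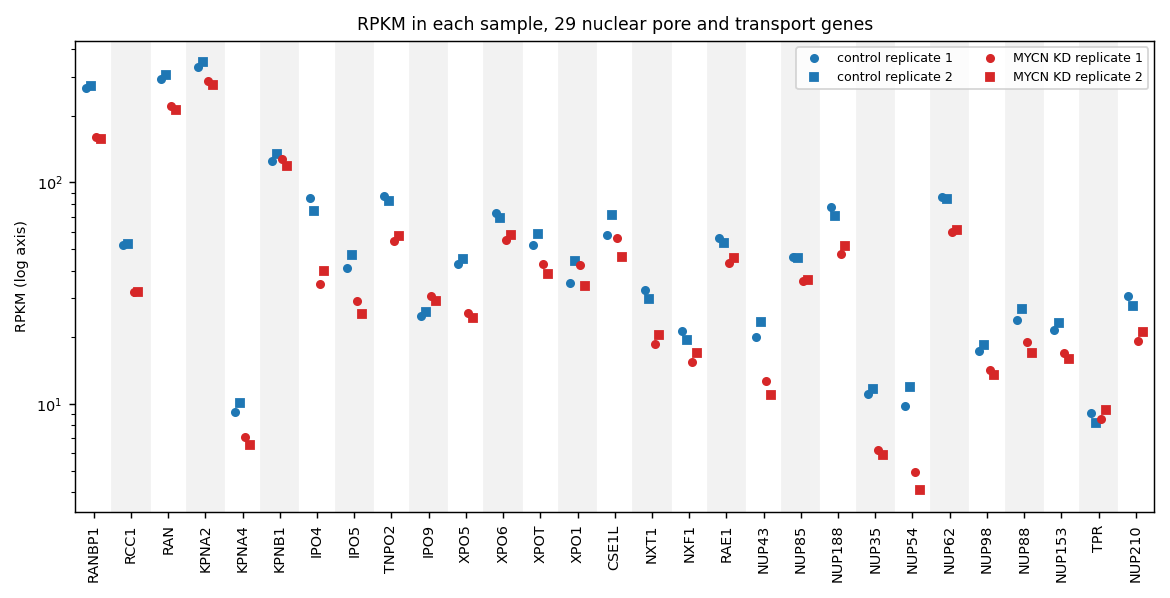
RPKM (log axis) of 29 nuclear pore and transport genes in each of the 4 samples, control in blue and MYCN KD in red, with circles for replicate 1 and squares for replicate 2. IPO4 and NUP54 show the widest gaps between the groups, and the values of KPNB1, XPO1 and TPR overlap.

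All 3 genes of the messenger RNA export receptor and its partners were lower. NXT1, the small partner of NXF1, had 32.8 and 29.8 RPKM in control and 18.7 and 20.6 RPKM in MYCN KD. The groups were well apart, at 62.7% of control (log2 fold change -0.65, standard error 0.079, adjusted p = 0.0106). NXF1, the receptor itself, had 21.2 and 19.4 RPKM in control and 15.5 and 17.03 RPKM in MYCN KD, and RAE1, which binds NUP98 at the pore, had 56.2 and 53.2 RPKM in control and 43.4 and 45.8 RPKM in MYCN KD. MYCN KD was below control in both samples for each gene, by smaller steps than for NXT1. The log2 fold change was -0.30 for NXF1 (standard error 0.076, adjusted p = 0.0465) and -0.29 for RAE1 (standard error 0.052, adjusted p = 0.0222). Neither passed with the replicate block (adjusted p = 0.129 for NXF1 and 0.104 for RAE1). With a sample left out NXF1 lay from -0.37 to -0.24 and RAE1 from -0.33 to -0.25. NXF1 was also not called with unfiltered genes (adjusted p = 0.0689) or with quantile normalization (0.0544).

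The Y complex forms the outer rings of the pore and is among the first parts laid down on chromatin after mitosis. In all 7 of its listed genes the knockdown samples lay below the controls without overlap, and 3 passed the test. NUP43 had 20.0 and 23.4 RPKM in control and 12.7 and 10.9 RPKM in MYCN KD. The step was 54.5% of control, larger than the spread within either group (log2 fold change -0.82, standard error 0.12, adjusted p = 0.0139). NUP85, the Y complex gene with the highest mean, had 46.1 and 45.8 RPKM in control and 36.1 and 36.4 RPKM in MYCN KD. These replicates lay close together, and a smaller step was called (log2 fold change -0.34, standard error 0.032, adjusted p = 0.00704). NUP37 had 25.6 and 29.0 RPKM in control and 21.5 and 19.1 RPKM in MYCN KD. It was lower (-0.41, standard error 0.098, adjusted p = 0.0412), but not without a filter (adjusted p = 0.0641) or with rescaled totals (-0.35, adjusted p = 0.0809).
SEH1L, shared with a regulator of growth signalling at the lysosome, had 8.54 and 10.7 RPKM in control and 7.86 and 6.31 RPKM in MYCN KD. Its log2 fold change of -0.40 was nearly that of NUP37, with a wider error (standard error 0.16, adjusted p = 0.123). SEH1L lay at -0.55 without control replicate 1 and -0.54 without MYCN KD replicate 1. Its difference shrank to -0.25 without control replicate 2 and -0.26 without MYCN KD replicate 2. NUP133, NUP107 and NUP160 had log2 fold changes of -0.28, -0.23 and -0.23 that were not called (adjusted p = 0.0832, 0.0859 and 0.219). With a sample left out, NUP133 lay from -0.36 to -0.20 and NUP160 from -0.35 to -0.11.

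All 5 genes of the inner ring, which anchors the channel to the membrane, were lower. NUP35, or NUP53, had 11.1 and 11.7 RPKM in control and 6.18 and 5.86 RPKM in MYCN KD. Replicates lay close together and MYCN KD was 52.8% of control (log2 fold change -0.82, standard error 0.053, adjusted p = 0.00436). NUP188, one of the large scaffold proteins, had 77.1 and 70.7 RPKM in control and 47.6 and 51.8 RPKM in MYCN KD. The groups were well apart (log2 fold change -0.56, standard error 0.072, adjusted p = 0.0116). NUP155 had 25.5 and 28.8 RPKM in control and 21.2 and 19.0 RPKM in MYCN KD. Its step was smaller (-0.42, standard error 0.092, adjusted p = 0.0349) and did not pass without a filter (adjusted p = 0.0551) or with rescaled totals (-0.36, adjusted p = 0.0696). NUP93 and NUP205 were both lower by 0.31 on the log2 scale (adjusted p = 0.00990 and 0.0312). NUP205, the paralog of NUP188, did not pass with rescaled totals (adjusted p = 0.0768). With the replicate block neither NUP93 nor NUP205 passed (adjusted p = 0.0761 and 0.0796). With a sample left out NUP205 lay from -0.37 to -0.26.

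The 3 nucleoporins with FG repeats in the central channel and its linkers were lower. NUP54, which lies on chromosome 4 from 77028715 to 77069638 of GRCh37, had 9.82 and 11.9 RPKM in control and 4.93 and 4.08 RPKM in MYCN KD. It had the largest difference of all the nuclear transport genes, with MYCN KD at 41.4% of control (log2 fold change -1.11, standard error 0.13, adjusted p = 0.0104). NUP62, which forms a complex with NUP54, had 85.9 and 83.8 RPKM in control and 59.7 and 61.2 RPKM in MYCN KD. Its replicates lay closer and its step was smaller (log2 fold change -0.48, standard error 0.036, adjusted p = 0.00504). NUPL1, the older symbol of NUP58 and the other member of that complex, is outside the rule and had 12.6 and 15.7 RPKM in control and 17.1 and 13.9 RPKM in MYCN KD. Its groups overlapped, with a difference of 0.12 (adjusted p = 0.562), so 2 of the 3 genes of the complex were called. Whether NUPL1 differs from NUP54 in its change was not tested.
NUP98, whose messenger RNA also encodes the Y complex subunit NUP96, had 17.3 and 18.4 RPKM in control and 14.3 and 13.5 RPKM in MYCN KD. The groups did not overlap (log2 fold change -0.34, standard error 0.055, adjusted p = 0.0179), but the call was lost with the replicate block (adjusted p = 0.0822). With a sample left out the difference lay from -0.39 to -0.30.

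At the cytoplasmic face, 2 of 3 genes were lower. NUP88 had 23.8 and 26.9 RPKM in control and 19.1 and 17.1 RPKM in MYCN KD, and NUP214, which binds it, had 23.6 and 22.5 RPKM in control and 17.9 and 18.7 RPKM in MYCN KD. In both genes the MYCN KD samples lay below the control samples. The log2 fold change was -0.46 for NUP88 (standard error 0.093, adjusted p = 0.0282, and 0.0544 with rescaled totals) and -0.31 for NUP214 (standard error 0.048, adjusted p = 0.0162). NUP214 did not pass with the replicate block (adjusted p = 0.104), and lay from -0.35 to -0.28 with a sample left out. AAAS, or ALADIN, had 90.3 and 81.6 RPKM in control and 72.99 and 80.6 RPKM in MYCN KD. Its groups came close to touching, and the difference of -0.16 was not called (adjusted p = 0.192).

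The nuclear basket, where messenger RNA enters the pore, held 1 lower gene of 3. NUP153 had 21.6 and 23.1 RPKM in control and 17.03 and 15.9 RPKM in MYCN KD. The groups did not overlap (log2 fold change -0.42, standard error 0.061, adjusted p = 0.0148). NUP50, which helps to release cargo from importin alpha, had 22.9 and 25.05 RPKM in control and 22.9 and 21.0 RPKM in MYCN KD, and TPR, the coiled-coil protein of the basket filaments, had 9.07 and 8.22 RPKM in control and 8.57 and 9.43 RPKM in MYCN KD. Neither was called, with differences of -0.12 (adjusted p = 0.244) and 0.05 (adjusted p = 0.605), and the sign of TPR turned without control replicate 2 (-0.01). The membrane-spanning NUP210 had 30.6 and 27.6 RPKM in control and 19.2 and 21.2 RPKM in MYCN KD. It was lower, at 69.5% of control (log2 fold change -0.50, standard error 0.082, adjusted p = 0.0183).

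The replicates of the 2 groups did not vary independently. In 38 of the 56 genes replicate 2 was above replicate 1 in control and below it in MYCN KD, in 18 the reverse held, and in 0 genes did both groups move the same way. Over all 11411 tested genes the 2 differences had the same sign in 73. The median size of the replicate difference was 0.13 on the log2 scale in control and 0.12 in MYCN KD for nuclear transport genes, beside 0.11 in each group for all tested genes. TNPO1, XPO1 and SEH1L had the widest replicate differences in control. The deposited values had passed the removal of unwanted variation, and its part in this mirror pattern was not tested. With 2 samples against 2, an exact two-sided permutation test of 1 gene cannot go below p = 0.3333.

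**Figure D4:**
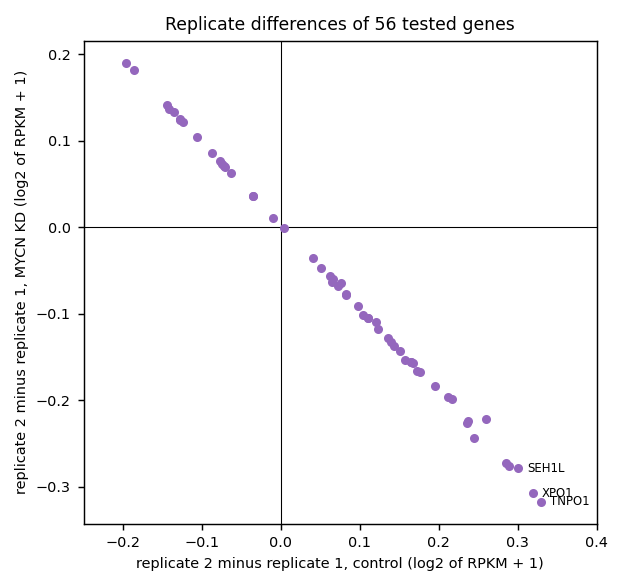
Difference of replicate 2 and replicate 1 in log2(RPKM + 1) for each of the 56 tested genes, in control (x axis) and in MYCN KD (y axis). The points lie along a falling line through 0, with TNPO1, XPO1 and SEH1L at the lower right end.

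Of the 30 lower genes, 17 passed in every other setting tried. A replicate block with crossed numbers, treated apart, is not counted here and kept all 30. The share of all tested genes that pass in every setting was not taken. The 17 genes were RAN, RCC1, RANBP1, KPNA4, IPO4, IPO5, TNPO2, TNPO3, XPO5, NXT1, NUP43, NUP35, NUP188, NUP62, NUP54, NUP153 and NUP210. Reads behind the tested genes ranged from 112 (KPNA5) to 25544 (RAN) in a sample. In the annotation, 16 of the 58 genes share exonic bases with another listed gene, 10 of them with a gene of at least 1 RPKM. RCC1 shares 242 bases with SNHG3 on the same strand, and NUP43 shares 222 with PCMT1, XPO5 348 with POLR1C, RANBP1 393 with TRMT2A, NUP62 565 with ATF5 and NUP88 3786 with RABEP1 on the opposite strand. Whether reads were counted by strand is not given in the sources used here, so reads of these partners cannot be told apart from those of the pore genes.

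Other genes of the pathway, which the rule did not take, are set beside the 22.8% lower and 25.3% higher of all tested genes. Of 10 further pore subunits and pore-bound factors, limma called 4 lower and 0 higher (40% lower, 0 higher at an unadjusted p under 0.05). On the log2 scale NDC1, a membrane nucleoporin, differed by -0.73 (adjusted p = 0.0276), DDX19A, a helicase of messenger RNA export, by -0.58 (adjusted p = 0.00387), NUPL2 by -0.41 (adjusted p = 0.0326) and the Y complex subunit SEC13 by -0.24 (adjusted p = 0.0242). NUPL2 was not called with rescaled totals (adjusted p = 0.0652) or unfiltered genes (0.0515), and SEC13 not with the replicate block (0.191). With a library left out SEC13 lay from -0.27 to -0.21. Of 18 tested genes of the TREX and TREX-2 complexes, which load messenger RNA for export, limma called 8 lower and 0 higher (44.4% lower, 0 higher at an unadjusted p under 0.05), with a median of -0.21. THOC3 (-0.62, adjusted p = 0.00714), THOC6 (-0.59, adjusted p = 0.00852), DDX39A (-0.52, adjusted p = 0.0262) and PCID2 (-0.51, adjusted p = 0.0113) had the largest called differences. Of 11 further receptors and adaptors, limma called 2 lower (18.2%) and 0 higher, with a median of -0.01. RANBP6 (0.52, adjusted p = 0.0635) and RANBP17 (0.30, adjusted p = 0.0582) were the 2 higher at an unadjusted p under 0.05. Both were called higher with quantile normalization (adjusted p = 0.0403 and 0.0457), and RANBP6 also with the replicate block (0.00881). The lower genes were RANGRF, which binds Ran (-0.46, adjusted p = 0.00756), and C11orf73, the older symbol of HIKESHI, an importer of heat shock protein (-0.17, adjusted p = 0.0348). C11orf73 was not called with rescaled totals (adjusted p = 0.0547), with quantile normalization (0.0619) or with the replicate block (0.389). With a library left out it lay from -0.19 to -0.16.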

How the data were processed

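RNA-seq of 2 control and 2 MYCN KD samples was used, grouped by sample title. Reads were aligned by the authors (HISAT2 2.1.0, build hg19) and assigned to RefSeq genes (featureCounts). The authors then applied DESeq2 and RUVSeq, which takes out unwanted variation, and deposited RPKM for each of the 4 samples. The RUVSeq variant and its number of factors are not given in the sources used here. The 4 samples' totals were recovered from the whole-read steps of small RNA genes, of which 94.1% to 95.4% came out whole within 0.02 of a read. All 19908 genes above 0 then gave whole reads. These totals are of normalized reads.

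The log2(RPKM + 1) values of the 11411 genes that averaged 1 RPKM or more entered 1 fit (R 4.3.3, limma 3.58.1, lmFit and eBayes with a trend), with no block and Benjamini-Hochberg adjustment. The fit was also run on simulated data. Those were drawn with independent replicates, unlike the mirrored replicates here, so the run cannot show whether the p-values hold. The genes, role groups and lists were chosen with earlier results of these data known, and the lists support nothing by themselves. Genes were given with per-sample values by rule: in each role group the 3 largest differences, the highest mean, calls against the group's direction, genes under the filter, and RAN, KPNB1, XPO1, CSE1L, KPNA2, TPR, NUP98 and NXF1. The values of RANBP2, RANBP3, RANGAP1, TNPO1, TNPO3, XPO4, XPO7, NUP93, NUP107, NUP133, NUP160, NUP205, IPO7, IPO8 and NUPL1 were added after they were seen. So were those of KPNA1, KPNA5, KPNA6, RANBP6 and RANBP17. Promoters came from RefSeq (GRCh38.p14 table, placed on GRCh37 by exact match) and gene positions from GENCODE release 44 lifted to GRCh37. Other tools were matplotlib 3.10.9, scipy 1.17.1, pandas 2.3.3, numpy 2.4.6 and Python 3.11.15. Alternatives were a pseudocount of 0.1, no filter, a mean RPKM of at least 5, quantile normalization, rescaled totals, eBayes without a trend, the replicate block and each sample left out. After the data were seen, 2 were added: a crossed block, and voom (limma) on recovered reads.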

Additional observations from a re-analysis of the deposited data

How the results depend on the processing

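The count of 30 lower nuclear transport genes lay from 24 (each sample rescaled to the same total) to 30 with another pseudocount, other filters, other scalings or no trend, was 30 with limma voom, and was 21 with the replicate block, whose lower calls made up 16.2% of all tested genes. With a sample left out it was 28 to 33. The median of -0.31 lay from -0.35 to -0.25. IPO9, the 1 higher gene, was not called with the replicate block, which left 0 higher genes, and each sample left out gave 0 as well. At a mean RPKM of at least 5, 1868 of the 7859 genes then tested were higher (23.8%), against 2890 of 11411 (25.3%). With a sample left out, 2153 to 2429 genes in all were lower and 2460 to 2781 higher. MYCN was past the threshold in each fit. With the crossed replicate block, added after seeing the data, 49 members were lower and 6 higher, and 5262 and 5910 genes in all, nearly every gene tested. The replicate 1 deviations of the 2 groups had a correlation of -0.9845. Whether equal numbers pair samples cannot be told from this, as the values had passed the removal of unwanted variation. The replicate block ended the calls of XPO6 (adjusted p = 0.0574), NUP85 (0.0575), NUP93 (0.0761), NUP205 (0.0796), NUP98 (0.0822), KPNA2 (0.0917), RAE1 (0.104), NUP214 (0.104), NXF1 (0.129) and IPO9 (0.256). Outside the rule it ended those of SENP1 (0.0608), SEC13 (0.191), MCM3AP (0.271), SAE1 (0.389) and C11orf73 (0.389). This left 1 lower gene of 8 in the SUMO pathway, 1 of 11 further receptors and adaptors, 3 of 10 further pore genes and 7 of 18 TREX genes. Among the 11 receptors and adaptors, 1 gene, RANBP6 (0.00881), was called higher with the block. With 2 samples in each group and 1 of each number, the block cannot change a gene's difference, only its error. That no sign turned with it was therefore fixed in advance. NUP85 and SEH1L had close adjusted p with the block (0.0575 and 0.0588), though their standard errors in the main fit were 0.032 and 0.16. Calls with the block thus say little of a gene's own spread. Signs turned with quantile normalization for NUTF2 (0.024) and RANBP2 (-0.037). With rescaled totals they turned for XPO1 (0.0066), TNPO1 (0.043), KPNA1 (0.035) and XPO4 (0.038). XPO1 also turned without control replicate 2 (0.11) or MYCN KD replicate 2 (0.10), and single samples left out gave -0.21 to 0.11. TPR turned without the same samples (-0.011 and -0.0098), with a range of -0.011 to 0.12. With a sample left out, 0 was also crossed by TNPO1 (-0.18 to 0.15), XPO4 (-0.13 to 0.10), KPNA5 (-0.17 to 0.075), KPNA6 (-0.071 to 0.071), KPNA1 (-0.091 to 0.048) and RANBP2 (-0.0076 to 0.097). None of these genes was called in the main fit. In each fit that leaves out a sample, the lone sample was assumed to vary like the other group, so calls there also say little of a gene's own spread. The causes were not tested.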

Other observations

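The nuclear lamina and inner nuclear membrane, which hold the pores in place, had 10 genes tested with limma. Of these, 3 were lower (30%), 2 were higher (20%) and 5 were not called, shares near the 22.8% lower and 25.3% higher of all tested genes. LMNA, which encodes lamins A and C and is known to rise with differentiation, had 144.3 and 129.1 RPKM in control and 216.7 and 241.1 RPKM after knockdown (log2 fold change 0.74, adjusted p = 0.0101). SUN2, which links the lamina to the cytoskeleton, was also higher (0.55, adjusted p = 0.0105). The B-type lamin genes were lower, LMNB1 with 54.1 and 58.9 RPKM in control and 39.8 and 36.7 RPKM after knockdown (-0.55, adjusted p = 0.0113) and LMNB2 by 0.38 on the log2 scale (adjusted p = 0.00970). BANF1, which binds DNA at the envelope, was lower, with a difference of -0.37 (adjusted p = 0.0126).

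Of 8 tested genes of the SUMO pathway, which modifies RANGAP1 at the pore, limma called 3 lower and 0 higher (37.5% lower, beside 22.8% of all tested genes, and 0 higher at an unadjusted p under 0.05). With rescaled totals or quantile normalization 2 were lower and 1 was higher. UBA2, a subunit of the SUMO activating enzyme, had 82.7 and 93.8 RPKM in control and 60.4 and 53.6 RPKM after knockdown (log2 fold change -0.62, adjusted p = 0.0173). SAE1, its partner, had a smaller difference (-0.16, adjusted p = 0.0299), and SENP1, a SUMO protease, had -0.40 (adjusted p = 0.0247). SAE1 was not called with rescaled totals (adjusted p = 0.129), with quantile normalization (0.260) or with the replicate block (0.389). With a library left out it lay from -0.17 to -0.14. SENP1 was also not called with the block (0.0608), and lay at -0.34 without control replicate 2 or MYCN KD replicate 2.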
